A study of Caenorhabditis elegans with 2 samples.

Results

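The 6 genes described here encode the cytosolic translation elongation factors of Caenorhabditis elegans: eef-1A.1 and eef-1A.2 (eEF1A), eef-1B.1, eef-1B.2 and eef-1G (subunits of eEF1B) and eef-2 (eEF2). They are 6 of 19973 nuclear protein-coding genes in the annotation, and all were found in it by name. The set follows a gene family, but it was chosen with results of these same lists known, and so counts as selected on their pooled, IDR and replicate signals. The values below are therefore descriptions, and no test was run on them. PHA-4, a transcription factor, was mapped by ChIP-seq (sequencing of DNA recovered with an antibody) in 1 group of 2 biological replicates of whole L4 larvae, the last larval stage. The animals were of strain OP37, genotype unc-119(ed3) III; wgIs37, males and females pooled, with age given as unknown. The wgIs37 insertion concerns pha-4, the labels' description names eGFP-pha-4 as the target, and the antibody entry reads pha-4. Whole worms were used, so the tissue behind a signal cannot be told, and binding in fewer cells cannot be told apart from less binding per cell. The control was not analysed here, and there was no second condition to compare with.

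Elongation factors carry the ribosome along the messenger RNA. GTP-bound eEF1A delivers each aminoacyl-tRNA to the ribosome, the eEF1B complex exchanges the spent GDP on eEF1A for GTP, and eEF2 uses GTP to move the ribosome to the next codon. PHA-4 is the FoxA forkhead factor that specifies the pharynx of the worm and also acts in the intestine, in autophagy and in the response to diet. Many worm messenger RNAs receive a spliced leader at their 5' end, so an annotated 5' end need not be the start of transcription.

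The sequences around the strongest summits of 5 of the genes are shown so that matches to the PHA-4 consensus can be read from them. All are read on the strand of the gene (WBcel235, the sequence of ce11), from the RefSeq genome, 5' to 3', within 50 bp of the pooled summit. Bases in annotated untranslated regions are left out, which shortened the stretches of eef-1B.1 (39 bp shown) and eef-1G (65 bp shown). The summit of eef-1B.1 itself lies among the bases left out. A lack of further matches in these 2 stretches covers only the bases shown, while the counts below used the whole window. Capitals mark matches on either strand to TRTTKRY, the PHA-4 consensus, with R for either purine, Y for either pyrimidine and K for G or T.
eef-1A.1 (chrIII:6972040-6972140, minus strand): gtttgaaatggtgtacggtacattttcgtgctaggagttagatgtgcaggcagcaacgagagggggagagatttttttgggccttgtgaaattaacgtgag
eef-1A.2 (chrX:7823167-7823267, plus strand): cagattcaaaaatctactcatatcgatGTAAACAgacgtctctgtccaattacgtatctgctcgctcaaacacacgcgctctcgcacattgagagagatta
eef-1B.1 (chrIII:7973387-7973425, minus strand): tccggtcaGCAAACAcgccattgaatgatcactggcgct
eef-1B.2 (chrIV:15037135-15037235, plus strand): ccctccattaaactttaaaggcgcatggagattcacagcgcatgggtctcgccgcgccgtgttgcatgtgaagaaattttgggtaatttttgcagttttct
eef-1G (chrV:10965654-10965718, plus strand): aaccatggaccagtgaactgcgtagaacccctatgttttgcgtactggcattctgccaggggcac

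The consensus stood within 50 bp of the summit at 2 of the 6 genes, eef-1A.2 and eef-1B.1, and at 715 of all 1484 regions of the authors' reproducibility-filtered (IDR) list (48.2%). At eef-1A.2 its centre lay 20 bp upstream of the summit and at eef-1B.1 39 bp upstream, in the direction of the gene. The nearest match lay 77 bp from the summit at eef-1A.1, 83 bp at eef-1B.2 and 115 bp at eef-1G, so none of these stood in the windows shown. At eef-2 it lay 140 bp away. The strongest regions of the family, those of eef-1G and eef-1A.1, thus held no match in the window, and neither did those of eef-2 and eef-1B.2. The regions of eef-1A.2 and eef-1B.1 held 1 each. A match is a run of letters and not a measured site, and its absence from a window says nothing of the factor.

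All 6 genes had a listed summit in the promoter window, which covered the 1000 bp before each annotated 5' end and the 200 bp after it, but their signals spread widely. In the IDR list, 5 of the 6 genes had a summit there, where 6.24% of all protein-coding genes did. The exception was eef-1B.1. In the whole lists, which keep background regions on purpose, all 6 had a summit in the pooled list (45% of all genes), in replicate 1 (37%) and in replicate 2 (37.5%). Among the strongest 1484 regions of replicate 1, as many as the IDR list holds, 4 of the 6 genes had a summit (5.91% of all genes), and among those of replicate 2, 5 did (6.04%). The 4 genes eef-1A.1, eef-1A.2, eef-1G and eef-2 had one in both (3.24%). The further gene in replicate 2 was eef-1B.1, while eef-1B.2, though in the IDR list, had one in neither. Because these lists were known when the genes were chosen, the counts do not bear on how the family compares with other genes.

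**Figure D1:**
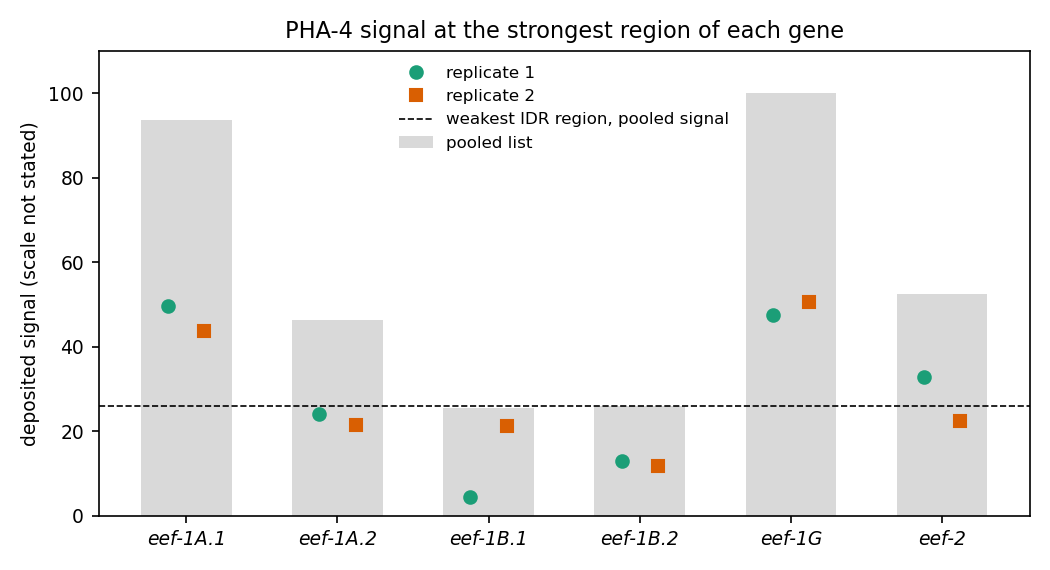
Deposited signal (y axis, scale not stated) of the strongest pooled region in each gene's promoter window (grey bars) and of the replicates' regions there (circles, replicate 1; squares, replicate 2), with a dashed line at the weakest IDR region, 25.9. The bars of eef-1G and eef-1A.1 reach 99.997 and 93.6, those of eef-1B.1 and eef-1B.2 stand at the line, and the replicates lie far apart at eef-1B.1 alone (4.38 and 21.2).

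The pair of eEF1A genes encodes the same protein, yet the regions before them differed in signal. Their coding sequences, 1389 bases each, were identical at 1305 positions (94.0%), and the translated proteins of 463 residues were identical throughout. The region before eef-1A.1 (WBGene00001168, III:6970026 to 6971712, minus strand) lay at III:6972042 to 6972189 and had a signal of 93.6 in the pooled list, 49.5 in replicate 1 and 43.6 in replicate 2. The region before eef-1A.2 (WBGene00001169, X:7823654 to 7825769, plus strand) lay at X:7823062 to 7823371 and had 46.4 in the pooled list, 24.1 in replicate 1 and 21.5 in replicate 2. Both replicates of eef-1A.1 thus stood above both of eef-1A.2. The ratio of eef-1A.1 to eef-1A.2 was 2.02 in the pooled list, 2.06 in replicate 1 and 2.03 in replicate 2, while the replicates of one gene differed by 1.14-fold and 1.12-fold.

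In rank, the eef-1A.1 region was number 9 of the 30000 pooled regions, number 12 in replicate 1 and number 16 in replicate 2. That of eef-1A.2 was number 236, 353 and 329. Both summits lay well upstream of the gene and outside every annotated gene, 378 bp before eef-1A.1 and 437 bp before eef-1A.2. The summit at eef-1A.1 stood 5 bp upstream of the annotated end of the microRNA gene cel-mir-5549 (WBGene00219220, III:6971976 to 6972085, minus strand), whereas no other gene's window held the summit at eef-1A.2. Every stretch of 36 bases within 150 bp of either summit occurred once in the genome, on both strands, so no such stretch was shared with the near-identical paralogue. The same held for the other 4 genes.

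**Figure D2:**
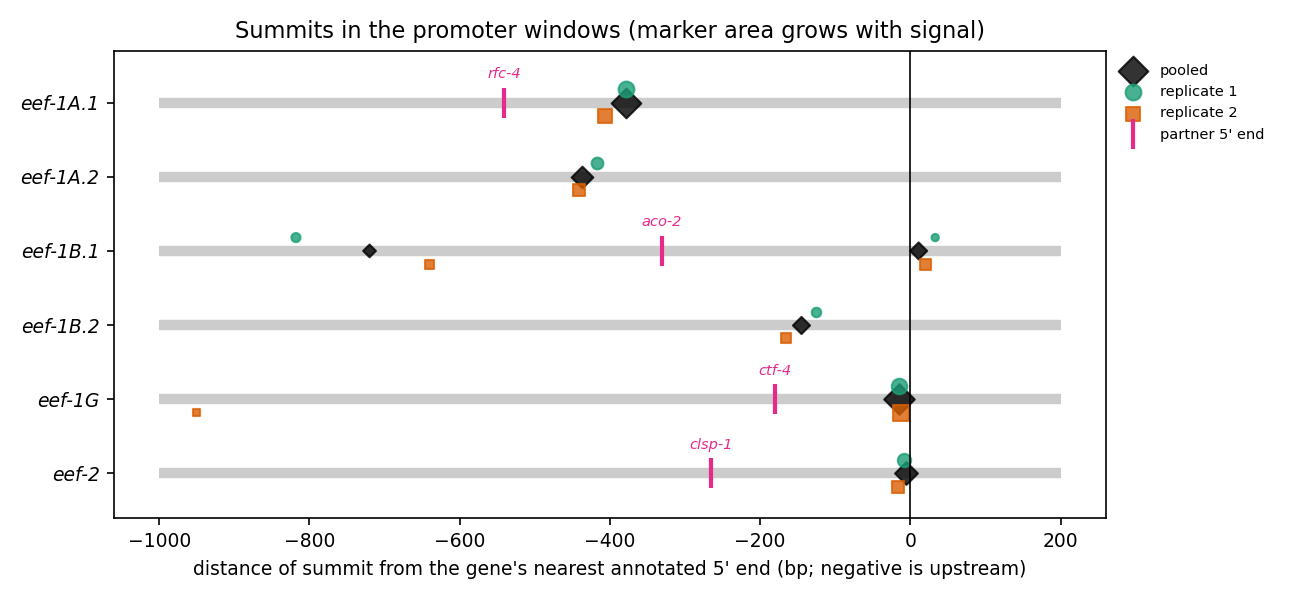
Distance of each summit from the gene's nearest annotated 5' end (x axis, bp, negative upstream) for the pooled list (diamonds), replicate 1 (circles) and replicate 2 (squares), with marker area growing with signal, grey bars for the promoter windows and vertical ticks for the 5' ends of protein-coding genes that share the strongest region. The strongest pooled summits of eef-1A.1 and eef-1A.2 lie 378 and 437 bp upstream, and those of eef-1G, eef-2 and eef-1B.1 lie within 15 bp of a 5' end. A weaker pooled summit of eef-1B.1 lies 720 bp upstream.

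In the pooled list the eEF1B genes held both the strongest and the weakest regions of the family, while in replicate 1 the region of eef-1A.1 was the strongest. eef-1G (WBGene00008920, V:10965719 to 10967922, plus strand), which encodes the gamma subunit, had a region at V:10965626 to 10965780 with a signal of 99.997 in the pooled list, 47.6 in replicate 1 and 50.5 in replicate 2. It was number 7 of the pooled regions, 14 in replicate 1 and 9 in replicate 2. Only 3 protein-coding genes were tied to a stronger region. Its summit lay 15 bp upstream of the first annotated 5' end, and the summits of the replicates were 2 bp apart. A further region of signal 4.27, with its summit 950 bp upstream and inside the neighbouring gene ctf-4, was listed in replicate 2 alone.

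The genes eef-1B.2 and eef-1B.1, which encode subunits that exchange the nucleotide on eEF1A, stood on either side of the end of the IDR list. Their most alike isoforms shared 147 identical residues, which is 55.9% of the longer isoform. eef-1B.2 (WBGene00012768, IV:15037331 to 15039551, plus strand) had a region at IV:15037030 to 15037339 with a signal of 25.96 in the pooled list, 13.0 in replicate 1 and 11.8 in replicate 2. The summit was 146 bp upstream of the 5' end. It was number 1483, the last but one in the IDR list, whose weakest region had 25.94. eef-1B.1 (WBGene00018846, III:7972382 to 7973386, minus strand) had a region at III:7973220 to 7973529 with a signal of 25.40 in the pooled list, number 1572, which is 0.543 below the weakest IDR region. In the replicates the same region had 4.38 (number 9755) in replicate 1 and 21.2 (number 343) in replicate 2.

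The replicates thus ordered this pair in opposite ways. The ratio of eef-1B.2 to eef-1B.1 was 2.97 in replicate 1, 0.555 in replicate 2 and 1.02 in the pooled list. At eef-1B.1 the summit lay 11 bp inside the gene, in its 5' untranslated region and in an exon of the non-coding RNA gene F54H12.9 on the other strand. A weaker pooled region of signal 10.8 lay 720 bp upstream of eef-1B.1. Its summit was inside the neighbouring gene aco-2 (III:7973717 to 7977355, plus strand). In replicate 1 the region there, 818 bp upstream, had 11.1 and was the strongest in the window, and in replicate 2 a region 640 bp upstream had 9.60. Both of these summits also lay inside aco-2. At eef-1B.2 each list held 1 region in the window.

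**Figure D3:**
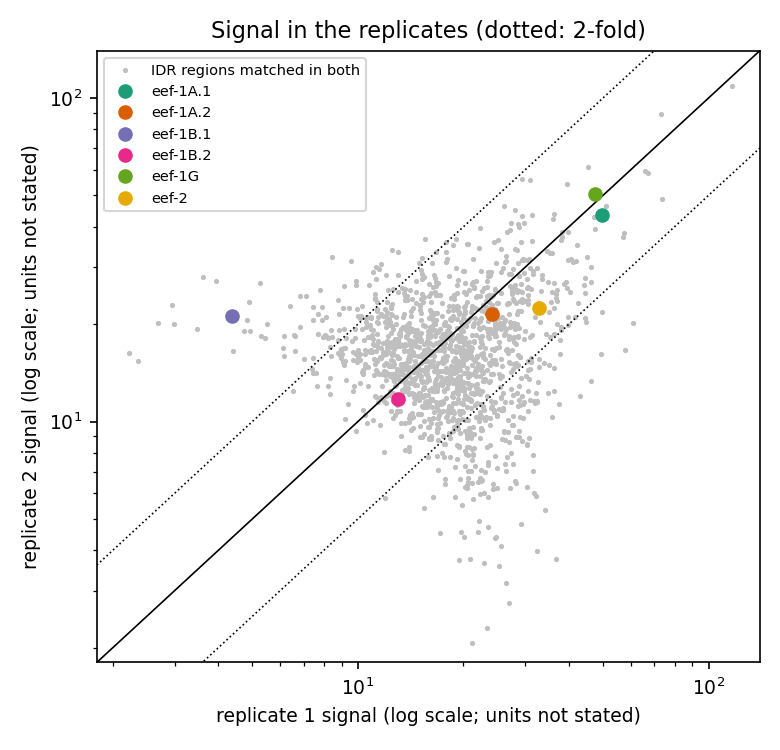
Signal in replicate 1 (x axis) and replicate 2 (y axis), both on log scales with units not stated, for the 1459 IDR regions found in both (grey) and for the strongest region of each gene (colours), with the line of equality and dotted lines at 2-fold. The points of 5 genes lie within the 2-fold lines, and that of eef-1B.1 (4.38 and 21.2) lies outside them.

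At 5 of the 6 genes the replicates differed by less than 2-fold, as they did at most of the matched IDR regions described below. A replicate is represented here by whichever of its regions had the highest signal among those peaking no more than 150 bp from the pooled summit. The log2 ratio of replicate 1 to replicate 2 was 0.18 at eef-1A.1, 0.16 at eef-1A.2, 0.15 at eef-1B.2, -0.09 at eef-1G and 0.55 at eef-2. Over 1459 IDR regions matched in both replicates the median was 0.16, with an SD across regions of 0.83, and 290 of them (19.9%) differed by more than 2-fold. At eef-1B.1 the log2 ratio was -2.28, which is 4.84-fold higher in replicate 2, and 9 of the 1459 IDR regions had a lower one. The eef-1B.1 region is itself outside the IDR list, and other regions outside that list were not compared. The summits of the replicates were 2 to 40 bp apart at the 6 genes, where the median over the matched IDR regions was 29 bp.

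The eEF2 gene, eef-2 (WBGene00001167, I:9163531 to 9166952, plus strand), ranked between the eEF1A genes. Its region at I:9163370 to 9163679 had a signal of 52.4 in the pooled list, 32.9 in replicate 1 and 22.5 in replicate 2, at rank 150 in the pooled list, 85 in replicate 1 and 277 in replicate 2. After eef-1B.1, it had the widest gap between replicates in the family, 1.46-fold. The replicates of eef-2 (22.5 to 32.9) overlapped those of its neighbour in the order of pooled signal, eef-1A.2 (21.5 to 24.1), but within each library eef-2 was the higher, with a ratio to eef-1A.2 of 1.37 in replicate 1 and 1.05 in replicate 2. The replicates of eef-1G (47.6 to 50.5) and eef-1A.1 (43.6 to 49.5) also overlapped, and their order turned, with a ratio of eef-1G to eef-1A.1 of 0.960 in replicate 1 and 1.16 in replicate 2. The order of eef-1B.2 and eef-1B.1 turned as well. The ratio of eef-1A.1 to eef-2 was 1.51 in replicate 1 and 1.94 in replicate 2, and that of eef-1A.2 to eef-1B.2 was 1.85 and 1.82, with no overlap of replicates in either pair. The summit of eef-2 lay 6 bp upstream of its first annotated 5' end in the pooled list, 8 bp in replicate 1 and 17 bp from another 5' end in replicate 2.

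**Figure D4:**
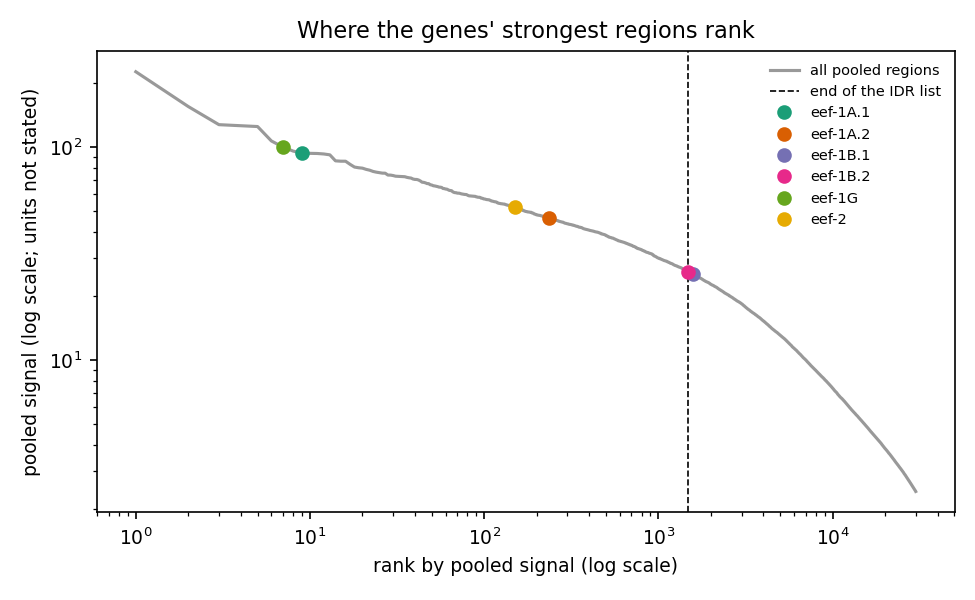
Pooled signal (y axis, log scale, units not stated) against rank (x axis, log scale) for all 30000 pooled regions (grey line), with the strongest region of each gene in colour and a dashed line at the end of the IDR list, rank 1484. eef-1G and eef-1A.1 stand at ranks 7 and 9, eef-2 and eef-1A.2 at 150 and 236, and eef-1B.2 and eef-1B.1 at 1483 and 1572.

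Another protein-coding gene, on the opposite strand, had the summit in its own promoter window at 4 of the 6 genes, so these regions cannot be given to 1 gene. The partner of eef-1A.1 was rfc-4, a subunit of the replication factor C clamp loader, and 541 bp separated their 5' ends. The summit there was nearer to rfc-4 (163 bp) than to eef-1A.1 (378 bp). The partner of eef-1G was ctf-4, which encodes a replisome protein, with 180 bp between the 5' ends and the summit 165 bp from ctf-4 and 15 bp from eef-1G. The partner of eef-2 was clsp-1, the claspin gene of the worm, with 265 bp between them and the summit 259 bp from clsp-1 and 6 bp from eef-2. The partner of eef-1B.1 was aco-2, which encodes mitochondrial aconitase, with 331 bp between them and the summit 342 bp from aco-2. In the IDR list, 3 of the 5 regions of the family were shared in this way, those with rfc-4, ctf-4 and clsp-1, and 287 of the 946 IDR regions in protein-coding promoter windows (30.3%) likewise lay in windows of genes on both strands.

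The members differed in what surrounded them. Within 5 kb of the strongest summit, the next strongest pooled region had a signal of 15.4 at eef-1A.1 (6.09-fold weaker than the summit's region), 13.9 at eef-2 (3.78-fold), 29.5 at eef-1G (3.39-fold), 10.8 at eef-1B.1 (2.34-fold) and 20.3 at eef-1A.2 (2.29-fold). Only at eef-1B.2 was the neighbour stronger. A region of 53.2 lay 2560 bp downstream of its summit, in the promoter window of hrpu-1. In all, 2 to 9 pooled regions lay in these stretches, and the median over IDR regions was 6.

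**Figure D5:**
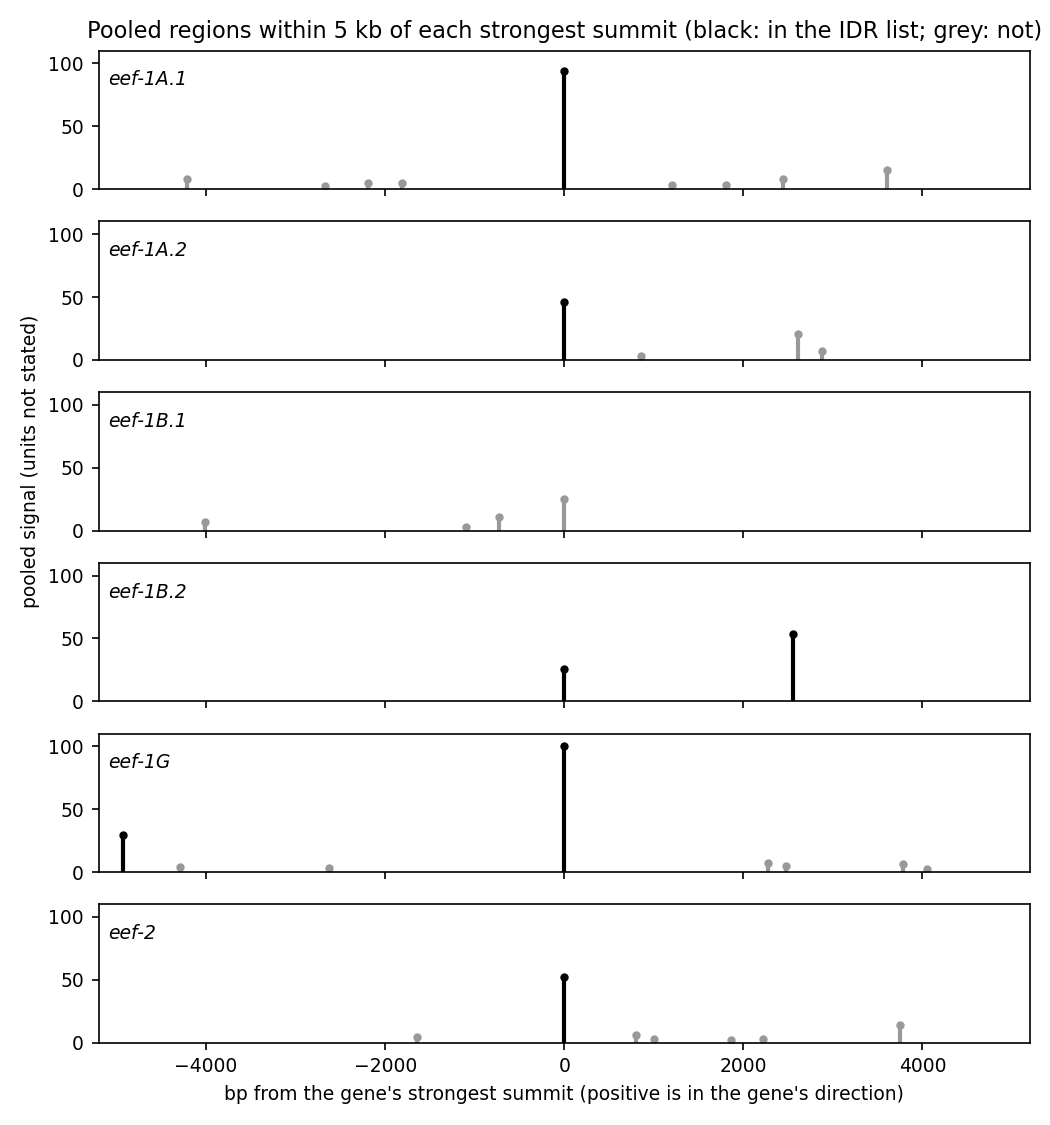
Pooled signal (y axis, units not stated) of every pooled region within 5 kb of the strongest summit of each gene, at its distance in bp along the gene's direction (x axis), with IDR regions in black and others in grey. At eef-1A.1 the summit's region stands at 93.6 above a next of 15.4, and at eef-1B.2 a region of 53.2 in the window of hrpu-1 stands above the gene's own 25.96.

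Inside the genes, from the end of the promoter window of the last annotated 5' end to the 3' end, there was no IDR region at any of the 6, where 0.437% of the 19679 protein-coding genes with such a stretch had one. The pooled list held 4 regions in eef-2, the strongest with a signal of 6.15, 2 in eef-1A.1 (3.45) and 1 in eef-1A.2 (2.77), and none in eef-1B.1, eef-1B.2 or eef-1G, so 3 of the 6 genes had one (32.9% of all such genes). Replicate 1 listed 1 region, in eef-2 (2.62), so 1 of the 6 genes had one (23.7%). Replicate 2 listed 2 in eef-2 (5.46), 2 in eef-1A.1 (4.91) and 1 in eef-1A.2 (2.97), so 3 of the 6 genes had one (24.1%). These signals were low beside those of the promoters of the same genes. The stretches searched differed in length, from 804 bp in eef-1B.1 to 2770 bp in eef-2, and the counts were not adjusted for it.

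Genes that act with the elongation factors, or in the same pathway, were looked up in the same lists. A list of 25 names was written by hand from knowledge of the pathway, of which 21 matched the annotation, and 2 of the 21 had an IDR summit in the window, where 6.24% of all protein-coding genes did. They were iff-1, an eIF5A gene (27.4 in the pooled list, 13.7 in replicate 1 and 13.8 in replicate 2), in a region shared with cdk-1, and tufm-2, a mitochondrial EF-Tu gene (31.3; 13.1 and 15.8), in a region shared with exoc-7. The pooled list held a region for 14 of the 21 (45% of all genes), with a median signal of 16.7, where the median over the 8994 protein-coding genes with one was 9.48. The eEF2 kinase gene efk-1 had 17.4 in the pooled list (5.21 in replicate 1 and 13.4 in replicate 2), and the release factor gene erfa-1 had 15.96 (3.48 and 11.4). The mitochondrial elongation factor gene gfm-1 had 24.5 (11.4 and 11.7), below the end of the IDR list. Between gfm-1 and efk-1 in pooled signal stood tufm-1 (21.9), dph-3 (20.8) and rack-1 (17.8). The region of tufm-1 had no value in replicate 1 and 17.7 in replicate 2. That of dph-3 had 13.7 in replicate 1 and 11.3 in replicate 2, and that of rack-1 had 15.6 and 2.78. The gene iff-2, also an eIF5A gene, had 6.92 in the pooled list, with 18.8 in replicate 1 and no value in replicate 2. For 7 genes, among them the hypusine enzyme genes dhps-1 and dohh-1, no pooled region lay in the window.

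For the 5 genes with an IDR region, the genes with the most similar signals were found by the Euclidean distance of the log2 signals in the pooled list and both replicates (3 lists of 2 samples). None was sought for eef-1B.1, which had no IDR region. For eef-1A.1 these were cox-5A, a cytochrome c oxidase subunit gene (92.8 in the pooled list, distance 0.0791), and ekl-4 (95.8, 0.103). For eef-1G they were ekl-4 and the ribosomal protein gene rps-20, which share 1 region (distance 0.175), so rps-20 was as close to eef-1A.1 as ekl-4 was. For eef-1A.2 they were aps-1 and the proteasome gene rpt-2, which share a region of 46.3 (distance 0.0285). For eef-2 they were ivns-1 (53.4, 0.0539) and farl-11 (52.9, 0.104), and for eef-1B.2 elks-1 (26.2, 0.0657) and C56G2.22 (26.9, 0.0788). Likeness here means only similar size of signal in these lists.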

How the data were processed

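The region lists used here are on ce11, in the narrowPeak format. The deposited manifests state that a list was called for each replicate and for the pool of both, against a control, and that the IDR (irreproducible discovery rate) list came from those 3. Its 1484 regions were the strongest 1484 of the pooled list. The authors deposited a signal for each region, with no scale stated, and a summit offset, from which the summit was placed. Neither the tool that called regions nor the IDR cutoff is given in the sources used here. No read counts were given, so depth is unknown and no interval was computed. Lists on ce10 and the control were not analysed here.

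Genes came from Ensembl release 115 (WBcel235), with mitochondrial genes left out. Summits inside a gene's promoter window were assigned to it, and to every other gene whose window held them. Named genes were the 6 members, the genes sharing their regions, the list members with an IDR summit and the 2 most alike genes per member with an IDR summit. Others named from the pathway list were chosen after their values were seen. The members and lists were chosen with earlier results of these data known. Alternatives changed the window, the tie, the list, the replicate and the match distance. Functions were tested on simulated data. Python 3.11.15, NumPy 2.4.6, pandas 2.3.3, Biopython 1.88 and matplotlib 3.10.9 were used.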

Additional observations from a re-analysis of the deposited data

How the results depend on the processing

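No paired analysis was possible because there was 1 group of 2 replicates and no contrast. The 5 of 6 genes in the IDR list became 4 when a summit counted for its closest gene alone (4.64% of all genes). The gene lost was eef-1A.1, whose summit lay 163 bp from rfc-4 and 378 bp from eef-1A.1. The count was also 4 when the strongest 742 IDR regions alone were used (3.2%), and it was 6 in the whole pooled list (45%). The count was 5 without replicate 1 (6.04%) and 4 without replicate 2 (5.91%). The 5 without replicate 1 held eef-1B.1 and not eef-1B.2. Windows of 500 and 100 bp (5.1% of all genes) and of 2000 and 500 bp (8.19%) left the count at 5 and each gene's strongest region as it was. The count of genes with the consensus near the summit, 2 within 50 bp, was 1 within 25 bp (28.5% of IDR regions) and 4 within 100 bp (70.1%), since a wider window can only add matches. With replicate signals divided by their median over matched IDR regions, the log2 ratio at eef-1B.1 was -2.47, and the small ratios at eef-1A.1, eef-1A.2 and eef-1B.2 became -0.01, -0.03 and -0.05. That at eef-1G moved away from 0, to -0.28, and that at eef-2 was 0.35. From single replicates the summit lay at -407 to -378 bp for eef-1A.1, -441 to -417 bp for eef-1A.2, 20 to 33 bp for eef-1B.1, -166 to -126 bp for eef-1B.2, and -15 to -13 bp for eef-1G. For eef-2 it lay at -8 bp from the first 5' end in replicate 1, and in replicate 2, 37 bp away, at -17 bp from a later 5' end, a place 29 bp past the first 5' end. Of the other elongation genes, 4 had a summit without replicate 1 (6.04% of all genes), 2 without replicate 2 (5.91%) and 3 with windows of 2000 and 500 bp (8.19%), against 2 in the IDR list (6.24%).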

Other observations

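The regions of eef-1A.1 and eef-1G were 148 and 155 bp wide, while those of the other 4 genes had 310 bp, the width of 94.8% of IDR regions. Of the 20 strongest IDR regions, 18 were narrower than 310 bp, against 5.05% of the whole list, so a narrow width went with a high signal there. The share of A and T within 50 bp of the summit was 54.5% at eef-1A.1, 57.4% at eef-1A.2, 50.5% at eef-1B.1, 53.5% at eef-1B.2, 52.5% at eef-1G and 53.5% at eef-2, against a median of 55.4% over IDR regions (quartiles 51.5 and 59.4%).

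Sequences of 5 bases, chosen after the region values were seen, were also searched on both strands of the same windows, overlapping matches included. GAGAG matched 2 times at eef-1A.1 and 3 times at eef-1A.2, and at none of the other 4 genes, where 44.6% of IDR windows held it. GATAA, the core that GATA factors bind, matched at none of the 6, where 13.4% of IDR windows held it.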
